A study of Mus musculus with 6 samples.

Results

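Rab small GTPases were followed across the knockdown as 59 of the 18193 genes measured. Members were the genes whose probe sets carried a single symbol made of Rab, a number and at most a letter from a to d, which leaves out Rab regulators and effectors. They had 132 probe sets in all, and each gene was read on its brightest probe set over the 6 arrays. The cells were mPAC L20, a mouse pancreatic duct line, and every culture had received Ad.CMV.Neurog3, an adenovirus in which the CMV promoter drives Neurog3, the factor that starts endocrine differentiation. Before it, 3 cultures had received an adenovirus with a scrambled hairpin (shControl) and 3 an adenovirus whose hairpin targets Atoh8 (shAtoh8), which encodes a transcription factor of the bHLH type. The 3 replicates of each group were independent experiments, per the labels. All arrays came from this line and carried viral Neurog3, so no array shows Rab levels without it.

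Rab proteins are molecular switches of membrane traffic. Each is held at its own set of membranes by prenyl groups at its C-terminus, is switched on by a guanine nucleotide exchange factor (GEF), which loads GTP, and is switched off by a GTPase-activating protein (GAP). In the GTP form a Rab recruits effectors such as tethers, motors and docking proteins. In secretory epithelia of the pancreas, Rab3 and Rab27 proteins are known on secretory granules, Rab8 and Rab11 proteins serve transport to the cell surface and the primary cilium, and Rab7 governs late endosomes and lysosomes.

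Values on single arrays are log2 signals and follow in the order of replicates 1, 2 and 3. Atoh8 itself read 8.75, 8.29 and 7.52 in shControl and 7.83, 7.90 and 7.37 in shAtoh8. It was lower in each replicate number (-0.92, -0.39 and -0.15), but the groups overlapped. The log2 fold change of -0.49 ± 0.30 (SE) did not pass the test (limma adjusted p = 0.573, and 0.157 with the replicate block explained below). Neurog3 had 2 probe sets that pointed different ways. One read 7.45, 6.64 and 5.79 in shControl and 6.78, 6.06 and 5.33 in shAtoh8 (-0.57 ± 0.48, adjusted p = 0.706, and 0.0330 with the block). The other read 6.43, 6.38 and 5.92 in shControl and 6.66, 6.38 and 6.22 in shAtoh8 (0.18 ± 0.17, adjusted p = 0.751, and 0.400 with the block). Array medians lay between 5.49 and 5.56. The duct keratin Krt19 had a mean of 13.43 in shControl and 13.40 in shAtoh8, while the duct markers Onecut1 (5.12 and 4.85) and Cftr (3.70 and 3.72) lay below the array medians. None of the 9 measured duct markers passed without that block (0, against 3 at an unadjusted p under 0.05 in limma), and with it 1 fell, Epcam (-0.73, adjusted p = 0.0463). Those 3 were Epcam, Krt7 (-0.25) and Onecut1 (-0.27), all negative and without overlap. The mean level of the duct list lay between 9.97 and 10.04 on shControl arrays and between 9.77 and 9.88 on shAtoh8 arrays. Mean levels of the acinar, endocrine, mesenchymal, endothelial and immune marker lists lay between 4.39 and 5.80 on every array. None of their 28 measured genes passed in either fit (0 and 0, against 2 at an unadjusted p under 0.05 in limma), and the brightest was Cela1 (8.45 and 8.82). The part of Epcam or of these markers in the Rab values was not tested.

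Because Atoh8 and Neurog3 are both bHLH factors, which bind E-boxes (CANNTG), the 250 bases upstream of the annotated start are shown for 3 Rab genes on which the results turn. These are Rab8b, the member that fell past the threshold, Rab8a, its close relative with a value of the other sign, and Rab7, which rose once replicate numbers were taken into account. The sequences are RefSeq's (GRCm38.p6), written 5′ to 3′ on the gene's strand, and capitals mark each CANNTG.
Rab8b, chr9:66919706-66919955, minus strand: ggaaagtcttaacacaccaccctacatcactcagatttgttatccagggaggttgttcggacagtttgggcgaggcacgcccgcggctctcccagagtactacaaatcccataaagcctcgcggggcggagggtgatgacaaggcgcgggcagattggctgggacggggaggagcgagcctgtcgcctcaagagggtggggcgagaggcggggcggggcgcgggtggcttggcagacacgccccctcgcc
Rab8a, chr8:72160950-72161199, plus strand: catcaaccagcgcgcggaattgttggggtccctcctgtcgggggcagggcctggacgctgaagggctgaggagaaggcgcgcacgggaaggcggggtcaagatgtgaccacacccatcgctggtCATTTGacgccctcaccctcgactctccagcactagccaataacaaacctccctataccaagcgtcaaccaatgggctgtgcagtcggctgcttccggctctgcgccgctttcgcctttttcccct
Rab7, chr6:88045271-88045520, minus strand, the more upstream of its listed starts: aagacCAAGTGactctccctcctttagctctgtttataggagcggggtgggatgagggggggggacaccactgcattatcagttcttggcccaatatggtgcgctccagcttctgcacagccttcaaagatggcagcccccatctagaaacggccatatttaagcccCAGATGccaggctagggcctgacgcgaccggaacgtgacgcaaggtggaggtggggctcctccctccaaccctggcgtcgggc

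The Rab8b window held 0 E-boxes, that of Rab8a held 1 and the printed one of Rab7 held 2, while the window of the other listed Rab7 start held 0. CANNTG is its own reverse complement, so the search covers both strands. RefSeq windows were found for 48 of the 59 members, 60 windows in all. Rab30 and Rab27b, which also passed with the replicate block, had none and could not be shown. Of the members' windows 63.3% held a CANNTG, against 66.2% of all 32851 windows. The narrower form CACGTG, which is contained in CANNTG and also reads the same on both strands, was present in 8.33% of the members' windows and 6.02% of all. It lay upstream of Rab5a, Rab20, Rab21, Rab23 and Rab27a, for Rab23 and Rab27a at only 1 of their listed starts. A match is a stretch of letters and not a measured binding site, and binding was not measured on these arrays.

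Rab8b fell past the threshold, the only member to do so in the fit without the replicate block, and most of the family moved little. No member passed higher (0 of 59). Of all 18193 genes 1.15% passed (0.638% of all genes lower and 0.517% higher), and 1 member of 59 is 1.69%. At an unadjusted p under 0.05 there were 14 members (23.7%, against 17.5% of all genes). Of these 7 were higher (against 8.72% of all genes) and 7 lower (against 8.82%), or 11.9% of the members each. In all 34 members had a positive (57.6%, against 53.1% of all genes) and 25 a negative fold change, and the median was 0.01 (log2), as over all genes (0.01). The median size regardless of sign was 0.15, against 0.11 over all genes, and 4 members (6.78%, against 6.29% of all genes) differed by at least 0.5.

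Arrays of the same replicate number tended to deviate alike in these data, though the labels name no pairing. A fit that takes up the replicate number as a block was therefore also made. It leaves each fold change as it is and changes its error. With the block 4 members passed (6.78%, against 4.67% of all genes): Rab30 and Rab7 rose (1.92% of all genes did) and Rab8b and Rab27b fell (2.75%). Groups did not overlap for 20 members (33.9%, against 24% of all genes), 12 with every shAtoh8 array above every shControl array (20.3%, against 12.6%) and 8 below (13.6%, against 11.4%). Most Rab genes were read on bright probe sets, with 49 of 59 brighter than the median probe set. Among those 49, the groups did not overlap for 36.7%, 2.04% passed and 8.16% passed with the block. Among all genes that bright, the shares were 31.3%, 1.81% and 7.11%. Within replicate numbers 31 members moved the same way in all 3 (52.5%, against 45.6% of all genes), 19 higher (32.2%, against 24%) and 12 lower (20.3%, against 21.5%).

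**Figure D1:**
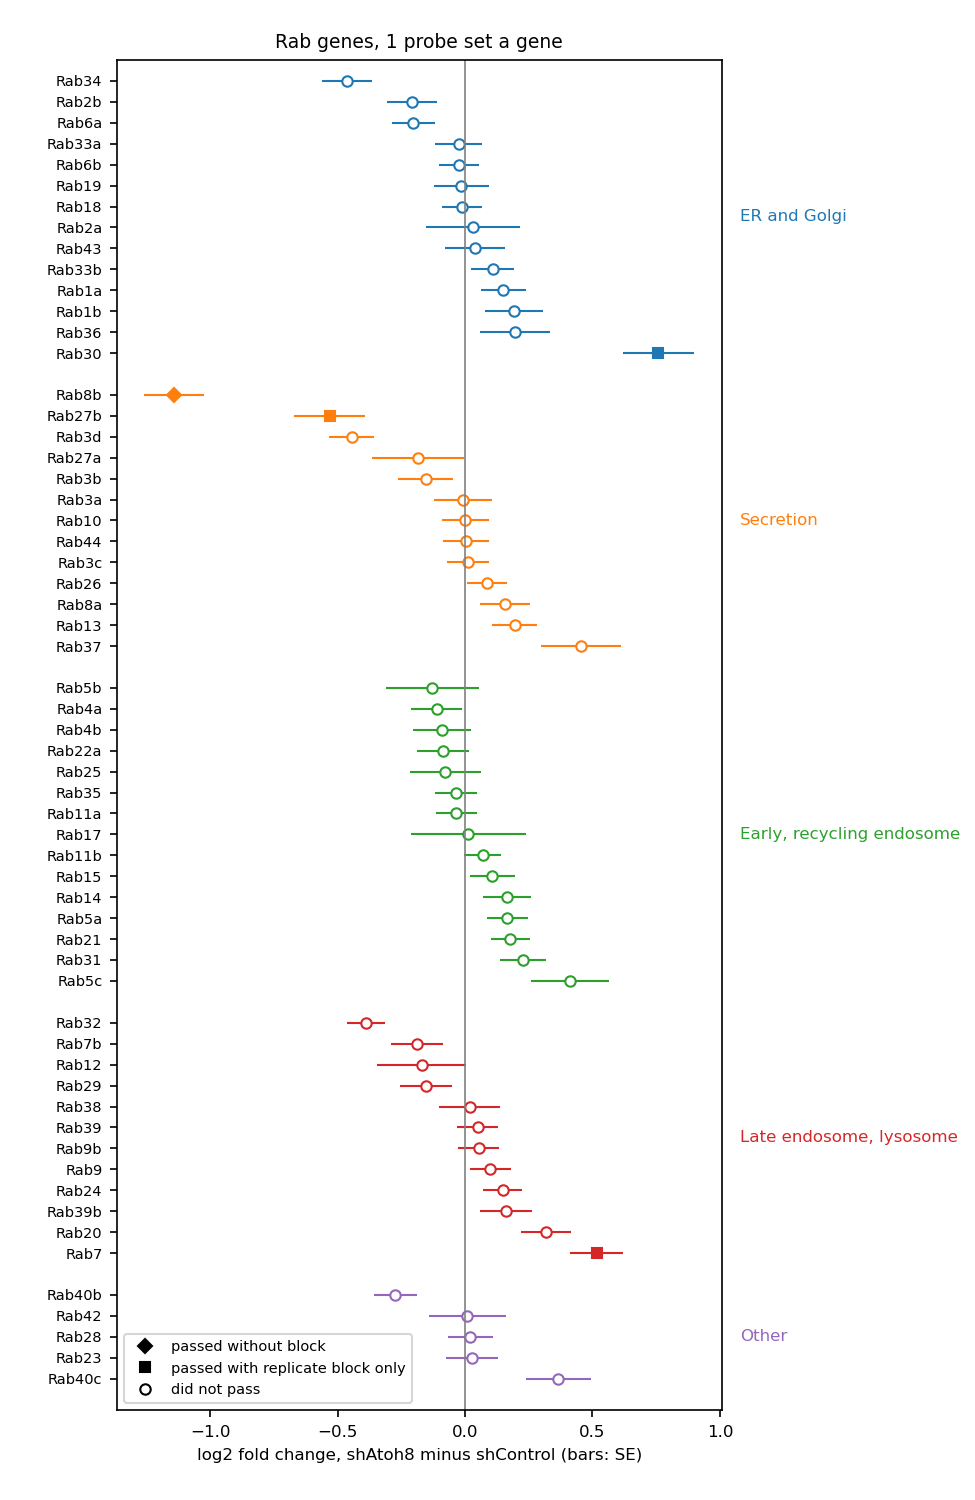
Log2 fold change (shAtoh8 minus shControl, horizontal axis) of the 59 Rab genes, grouped by role, each on 1 probe set, with limma's standard error as bars. The filled diamond is Rab8b, which passed without the block at -1.14; filled squares (Rab30, Rab7 and Rab27b) passed with the replicate block only, and open circles did not pass.

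Rab GTPases of secretion and of transport to the plasma membrane held the largest fall. Rab8b, which carries cargo from recycling endosomes and the Golgi to the cell surface and the cilium, read 9.63, 9.37 and 9.56 in shControl and 8.42, 8.53 and 8.19 in shAtoh8. Every shAtoh8 array lay below every shControl array, by at least 0.84 within a replicate number. Group means were 9.52 ± 0.14 and 8.38 ± 0.17 (SD, n = 3 each). The log2 fold change was thus -1.14 ± 0.12 (SE), 2.21-fold lower, and passed with a limma adjusted p of 0.0192. With the block the adjusted p was 0.0189. Without 1 array at a time the fold change stayed between -1.22 and -1.05, but the call was lost without shControl replicate 1 (adjusted p = 0.0795), 2 (0.0784) or 3 (0.0715) and without shAtoh8 replicate 1 (0.0840). The other Rab8b probe set was dim, with means of 3.90 in both groups, and read 0.00 ± 0.08; as the mean of both sets Rab8b was at -0.57 (adjusted p = 0.0213).

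Rab8a, the paralog that shares these routes, did not pass. It read 9.94, 9.78 and 9.62 in shControl and 9.95, 9.91 and 9.95 in shAtoh8, with a log2 fold change of 0.16 ± 0.10 (adjusted p = 0.585). Its other 2 probe sets, both dimmer, had the same sign. The within-array difference between Rab8b and Rab8a therefore moved by -1.30 (log2), and its values did not overlap between groups. The exact two-sided permutation p was 0.1, the smallest that 3 arrays against 3 allow, and 0.125 after Benjamini-Hochberg adjustment over the 5 paralog pairs compared, which were picked with their values known.

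Rab27b and Rab27a, which dock secretory granules and exosome-forming endosomes at the plasma membrane, both had negative values. Rab27b read 9.17, 9.51 and 9.68 in shControl and 8.85, 8.87 and 9.05 in shAtoh8. The groups did not overlap, although shControl replicate 1 came within 0.12 of the highest shAtoh8 array. The log2 fold change was -0.53 ± 0.14 (SE), 1.45-fold lower (limma adjusted p = 0.144, and 0.0484 with the block). The call with the block was lost without replicate number 1 (adjusted p = 0.128), 2 (0.0861) or 3 (0.242). Of its other 3 probe sets, 2 gave -0.61 and -0.47 without overlap and a dimmer one gave -0.06. Rab27a, at -0.18 ± 0.18 on its brightest set (adjusted p = 0.758, and 0.335 with the block), was lower in all 3 replicate numbers and negative on each of its 4 probe sets. The difference between these paralogs moved by -0.35 with overlapping groups (exact permutation p = 0.4, also 0.4 adjusted over the 5 pairs). This test does not use the replicate numbers, within which the difference moved by -0.01, -0.50 and -0.52.

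Rab3d, a granule Rab of exocrine and other secretory cells, read 9.69, 9.67 and 9.66 in shControl and 9.35, 9.22 and 9.11 in shAtoh8. The shControl arrays were within 0.03 of each other and all shAtoh8 arrays lay below them. Its log2 fold change of -0.45 ± 0.09 missed the threshold (adjusted p = 0.0741, and 0.0507 with the block). All 4 of its probe sets were negative, and as their mean Rab3d was at -0.25. On their brightest sets Rab3b was at -0.16, Rab3a at -0.01 and Rab3c at 0.01. All 5 probe sets of Rab3c were dim, and 3 of its other 4 read 0.56, 0.45 and 0.86 without overlap, none past the threshold (adjusted p = 0.190, 0.108 and 0.170, and 0.0549, 0.0571 and 0.0953 with the block). Between Rab3d and Rab3a the within-array difference moved by -0.44 without overlap (exact permutation p = 0.1, adjusted 0.125).

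Other Rabs of this class had positive values or values near 0. Rab37, found on secretory granules, read 5.66, 5.52 and 5.23 in shControl and 6.17, 5.69 and 5.91 in shAtoh8. These groups barely separated, and the log2 fold change was 0.46 ± 0.16 (adjusted p = 0.247, and 0.0974 with the block). Its dimmer probe set gave 0.69 and passed with the block (0.0398). Rab13, which serves tight junction traffic, read 8.80, 8.63 and 8.58 in shControl and 8.94, 8.84 and 8.82 in shAtoh8, a narrow separation (0.19 ± 0.09, adjusted p = 0.413). Rab26 was at 0.09, and Rab10 and Rab44 were at 0.00 each. Of the 13 genes in this class 1 passed lower (0.638% of all genes did). With the block 2 passed lower, Rab8b and Rab27b (2.75% of all genes did). None passed higher in either fit (0 and 0, against 1 at an unadjusted p under 0.05 in limma), and the median was 0.00.

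**Figure D2:**
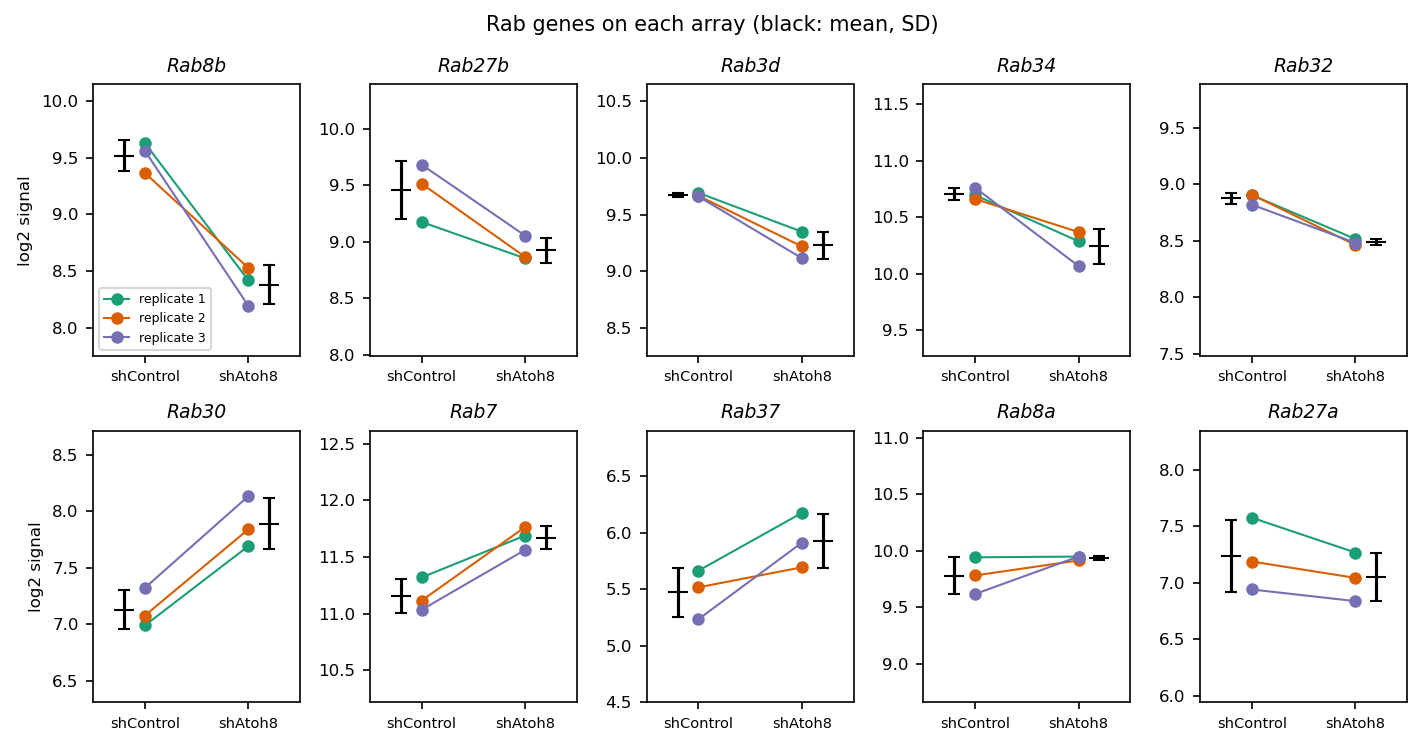
Log2 signal (vertical axis, each panel spanning the same 2.4 units) of 10 Rab genes on each array, with lines joining arrays of the same replicate number and black marks giving the group mean and SD (n = 3). Rab8b, Rab27b, Rab3d, Rab34 and Rab32 lie lower and Rab30, Rab7 and Rab37 higher on every shAtoh8 array than on any shControl array, while the groups of Rab8a and Rab27a overlap.

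Among the Rabs of the ER and the Golgi, Rab30 rose once the block was used. Rab30, which resides on the Golgi, read 6.99, 7.08 and 7.32 in shControl and 7.69, 7.84 and 8.13 in shAtoh8. Within replicate numbers the differences were close to each other, at 0.70, 0.76 and 0.81. Group means were 7.13 ± 0.17 and 7.89 ± 0.22 (SD, n = 3 each), and the log2 fold change was 0.76 ± 0.14 (SE), 1.69-fold higher, with a limma adjusted p of 0.0658. With the block the SE was 0.08 and the adjusted p 0.0189, but 0.110 without replicate number 1 and 0.119 without number 3. The second, dimmer probe set read 1.28 ± 0.25 and also passed with the block (adjusted p = 0.0240). The mean of both sets gave 1.02 and passed without the block (adjusted p = 0.0139). That fit, on the averaged probe sets of each gene, also called Rab32, which has 1 probe set and missed the threshold in the main fit. A pass in it can therefore come from the change of fit alone.

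Rab34, known for its part in building the primary cilium and in positioning lysosomes, read 10.70, 10.66 and 10.76 in shControl and 10.29, 10.37 and 10.07 in shAtoh8. All shAtoh8 arrays lay below, and the log2 fold change was -0.46 ± 0.10 (adjusted p = 0.0900, and 0.0728 with the block). Its other probe set gave -0.37, also without overlap. Rab6a, a Rab of retrograde Golgi transport, and Rab2b, of ER-to-Golgi transport, had small negative values. Rab6a read 11.15, 11.35 and 11.31 in shControl and 11.06, 11.10 and 11.05 in shAtoh8 (-0.20 ± 0.08, adjusted p = 0.352). Rab2b read 6.38, 6.35 and 6.63 in shControl and 6.27, 6.23 and 6.23 in shAtoh8 (-0.21 ± 0.10, adjusted p = 0.420), and was at -0.02 once probe sets marked _x_ or _s_ were left out. In both genes every shAtoh8 array lay below every shControl array.

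Rab1a and Rab1b, which start ER-to-Golgi transport, had small positive values with overlapping groups. Rab1a read 12.51, 12.43 and 12.48 in shControl and 12.67, 12.49 and 12.72 in shAtoh8 (0.15 ± 0.09, adjusted p = 0.556). Rab1b read 9.78, 9.54 and 9.49 in shControl and 9.64, 9.91 and 9.84 in shAtoh8 (0.19 ± 0.11, adjusted p = 0.548). Rab1a was higher in all 3 replicate numbers and Rab1b in 2 of them. The other members ran from -0.02 (Rab33a) to 0.20 (Rab36), among them Rab18, a Rab of the ER and lipid droplets (-0.01). Rab2a was at 0.03 on its brightest set, while 2 other bright ones read 0.36 and 0.39 without overlap (adjusted p = 0.167 and 0.138); of the other 4, all dimmer, 2 were negative. Rab6b was at -0.02, and its other 3 sets read -0.49, -0.27 and -0.30 without overlap (adjusted p = 0.283, 0.284 and 0.126). None of the 14 genes of this class passed without the block (0, against 3 at an unadjusted p under 0.05 in limma). With it 1 rose (1.92% of all genes did), and the median was 0.01.

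Late endosomal and lysosomal Rabs held a riser and a gene of negative sign close to the threshold. Rab7, which drives the fusion of late endosomes and autophagosomes with lysosomes, read 11.32, 11.11 and 11.03 in shControl and 11.69, 11.76 and 11.56 in shAtoh8. All shAtoh8 arrays lay above. Group means were 11.16 ± 0.15 and 11.67 ± 0.10 (SD, n = 3 each). The log2 fold change was 0.52 ± 0.10 (SE), 1.43-fold higher (limma adjusted p = 0.0794, and 0.0432 with the block). That call, too, was lost without replicate number 1 (adjusted p = 0.141), 2 (0.0788) or 3 (0.212). The other probe set read 0.38 ± 0.09, again without overlap (adjusted p = 0.119, and 0.0663 with the block). The mean of both sets passed without the block (0.45, adjusted p = 0.0359), in the fit on averaged probe sets that also called Rab32. Rab7b, which returns cargo from endosomes to the Golgi, read 6.13, 6.22 and 6.33 in shControl and 5.88, 6.13 and 6.10 in shAtoh8 (-0.19 ± 0.10, adjusted p = 0.505). The difference between Rab7 and Rab7b moved by 0.70 without overlap (exact permutation p = 0.1, adjusted 0.125).

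Rab32, a Rab of lysosome-related organelles and mitochondria, read 8.90, 8.91 and 8.82 in shControl and 8.52, 8.47 and 8.48 in shAtoh8. These groups were tight and well apart, with SDs of 0.05 and 0.03. The log2 fold change was -0.39 ± 0.07, with an adjusted p of 0.0720, and 0.0609 with the block. Rab32 passed in the fit on averaged probe sets, although it has 1 probe set and so the same values there. Rab38, its paralog on the same organelles, was at 0.02 ± 0.12, and the difference between them moved by -0.41 without overlap (exact permutation p = 0.1, adjusted 0.125).

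Rab20, a Rab of phagosome maturation, read 5.59, 5.61 and 5.72 in shControl and 6.12, 5.85 and 5.91 in shAtoh8, at 0.32 ± 0.10 (adjusted p = 0.200). Rab24, linked to autophagy, read 9.90, 9.97 and 9.87 in shControl and 10.09, 10.09 and 9.99 in shAtoh8 (0.15 ± 0.08, adjusted p = 0.493). Both were higher on every shAtoh8 array than on any shControl array. Rab9, which returns cargo from late endosomes to the Golgi, was at 0.10, and Rab39b, Rab9b and Rab39 lay between 0.05 and 0.16. Rab29 was at -0.15 and Rab12 at -0.17, and the other probe set of Rab12 was positive. None of the 12 genes passed without the block (0, against 3 at an unadjusted p under 0.05 in limma). With it 1 rose, Rab7 (1.92% of all genes did), and the median was 0.05.

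None of the 15 Rabs of early and recycling endosomes passed (0 without and 0 with the block, against 2 at an unadjusted p under 0.05 in limma). All values were at most 0.41 in size. Rab5c, a Rab of early endosome fusion, had the largest, 0.41 ± 0.15, but its groups overlapped, with 9.57, 9.49 and 9.81 in shControl and 10.25, 9.73 and 10.12 in shAtoh8 (adjusted p = 0.289). Rab5a, of the same function, read 10.90, 10.85 and 11.01 in shControl and 11.12, 11.05 and 11.09 in shAtoh8, a small step without overlap (0.17 ± 0.08, adjusted p = 0.439). Rab5b was at -0.13 ± 0.18 (adjusted p = 0.852).

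Rab31 and Rab21, which act in early endosomal sorting and integrin uptake, were higher on every shAtoh8 array by small steps. Rab31 read 10.71, 10.81 and 10.86 in shControl and 10.91, 11.04 and 11.11 in shAtoh8 (0.23 ± 0.09, adjusted p = 0.315). Rab21 read 10.07, 10.08 and 10.04 in shControl and 10.20, 10.21 and 10.31 in shAtoh8 (0.18 ± 0.08, adjusted p = 0.372). Rab14, which links endosomes with the Golgi, read 12.07, 11.99 and 11.84 in shControl and 12.17, 12.18 and 12.04 in shAtoh8 (0.16 ± 0.09, adjusted p = 0.533). Its groups overlapped, and all 7 of its probe sets were positive. The recycling Rabs lay close to 0, with Rab11a at -0.03, Rab11b at 0.07, Rab4a at -0.11, Rab4b at -0.09 and Rab35 at -0.04. Rab25 and Rab17, known from polarised epithelia, were at -0.08 and 0.01. Rab15 was at 0.11 and Rab22a at -0.09, and for Rab22a the other 3 probe sets were positive. The median of this class was 0.01.

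The remaining 5 members did not pass in either fit (0 and 0, against 2 at an unadjusted p under 0.05 in limma). Rab40b and Rab40c, which carry a SOCS box and join ubiquitin ligases, had opposite signs. Rab40c read 8.97, 8.95 and 8.54 in shControl and 9.16, 9.20 and 9.21 in shAtoh8, at 0.37 ± 0.13 (adjusted p = 0.249), without overlap. Rab40b read 5.01, 5.04 and 4.90 in shControl and 4.69, 4.79 and 4.65 in shAtoh8 (-0.27 ± 0.08, adjusted p = 0.193). The dimmer probe set of Rab40b read 0.28 ± 0.22, and the mean of both sets was at 0.00. Rab23, a regulator of Hedgehog signalling, was at 0.03, Rab28 at 0.02 and Rab42 at 0.01.

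Probe sets of a gene did not always point the same way. Of the 38 members with several probe sets, 26 had the same sign on all of them, and 21 members had a single probe set. The share over all genes with several probe sets was not computed, so nothing is read from this count either. Signs differed within 8 of the 14 subfamilies that had at least 2 members, a count from which nothing is read, since most of these values were small and did not pass.

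**Figure D3:**
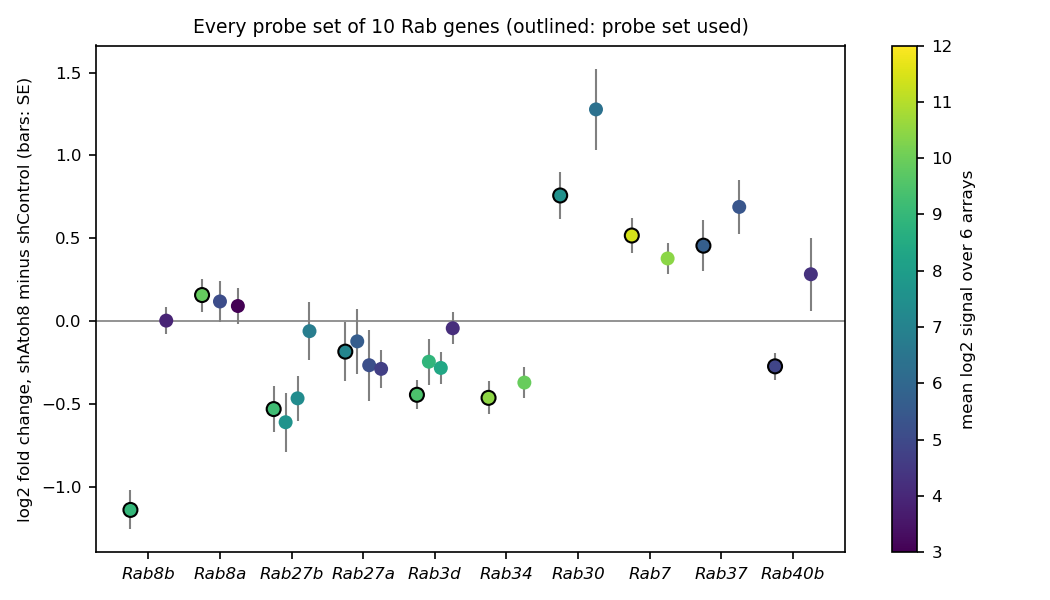
Log2 fold change (vertical axis, bars: SE) on every probe set of 10 Rab genes, coloured by mean log2 signal over the 6 arrays, with the probe set used outlined. The 2 sets of Rab30, Rab7, Rab34 and Rab37 agree in sign, the dim set of Rab8b lies at 0.00, and the 2 sets of Rab40b lie on opposite sides of 0.

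Genes that act on Rabs ran in log2 fold change from -1.53 to 1.29, against -1.14 to 0.76 for the Rabs themselves. The regulators and effectors were listed with earlier results of these data known, so nothing is read from the shares that follow. Of 134 measured regulators and effectors 3 rose and 1 fell (2.24% and 0.746%, against 0.517% and 0.638% of all genes). With the block 8 rose and 3 fell (5.97% and 2.24%, against 1.92% and 2.75% of all genes). Among all genes brighter than the median probe set, 1.81% passed and 7.11% passed with the block, both directions together. How many of the regulators and effectors are that bright was not counted. Tbc1d20, a GAP that switches off Rab1 and Rab18, read 8.37, 8.36 and 8.04 in shControl and 9.61, 9.61 and 9.42 in shAtoh8. It rose by 1.29 ± 0.12 (SE), 2.44-fold, with a limma adjusted p of 0.0121, and its groups lay more than 1 unit apart. Of the 35 GAPs it was the only one to pass without the block. With the block Tbc1d9 (0.80 ± 0.13, adjusted p = 0.0529 without and 0.0292 with it) and Tbc1d8 (0.77 ± 0.18, 0.103 and 0.0425) rose too. Tbc1d2b, a GAP for Rab22, fell with the block (-0.76 ± 0.14, 0.0657 and 0.0406). Rab18 and the Rab1 genes, on whose proteins Tbc1d20 acts, did not pass in either fit (values above). The arrays read RNA, so Rab protein and its GTP form were not measured, here or for the other regulators and effectors.

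Among 46 GEF genes, Mon1b rose and Dennd6a fell. Mon1b, a subunit of the MON1-CCZ1 complex that activates Rab7, read 7.23, 6.97 and 6.90 in shControl and 7.68, 7.68 and 7.66 in shAtoh8, a rise of 0.64 ± 0.10 just inside the threshold (adjusted p = 0.0499, and 0.0336 with the block). Dennd6a, an activator of Rab14, read 8.12, 8.19 and 8.14 in shControl and 7.54, 7.69 and 7.47 in shAtoh8, a fall of 0.58 on the log2 scale (SE 0.09, adjusted p = 0.0414). With the block Dennd1b, an activator of Rab35, fell (-1.53 ± 0.25, adjusted p = 0.0505 without and 0.0225 with it). Hps4, which with Hps1 activates Rab32 and Rab38, rose with the block (0.88 ± 0.17, 0.0680 and 0.0189), as did Dennd2a, an activator of Rab9 (0.54 ± 0.18, 0.224 and 0.0380). Hps1 was at -0.24 and did not pass. For Dennd1b, 1 of the other 3 probe sets was positive, and the mean of all was at -0.66 (adjusted p = 0.0208 without the block).

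Sytl2, a synaptotagmin-like effector that ties Rab27 vesicles to the membrane, rose: it read 10.44, 10.38 and 10.24 in shControl and 11.01, 11.00 and 11.13 in shAtoh8, 0.69 ± 0.09 higher (adjusted p = 0.0316). Its direction was opposite to that of Rab27b. Fyco1, a Rab7 effector that links late endosomes to kinesin, rose with the block (0.67 ± 0.16, adjusted p = 0.109 without and 0.0485 with it). The other 44 of 46 effectors did not pass in either fit. The general machinery of the Rab cycle did not pass: of 7 escort, prenylation and extraction genes none was called (0 and 0, against 1 at an unadjusted p under 0.05 in limma), with Chm, which presents new Rabs for prenylation, at 0.38 ± 0.12 (adjusted p = 0.195) and Chml at 0.11 ± 0.08 (0.627).

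Partners of Rab7, Rab8 and Rab27 were set side by side, a grouping made after the values were seen. Partners of Rab30, which also rose with the block, were not grouped. Of 10 known partners of Rab7, 7 had positive values, against 53.1% of all genes. Mon1b rose, and with the block Mon1b and Fyco1 did (0.517% and 1.92% of all genes rose in these fits); with so few partners, picked with their values known, nothing is read from these counts. Ccz1 was at 0.24 and Plekhm1, an adaptor for lysosome fusion, at 0.32, and neither passed (adjusted p = 0.209 for both). Of 10 partners of Rab8 none passed in either fit (0 and 0, against 1 at an unadjusted p under 0.05 in limma). Rab3ip, the GEF also called Rabin8, was at -0.30 and the effector Ehbp1 at 0.46 (adjusted p = 0.573 and 0.187). Of 11 partners of Rab27 1 rose (Sytl2), and the medians of the 3 groups were 0.10, 0.02 and 0.01.

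**Figure D4:**
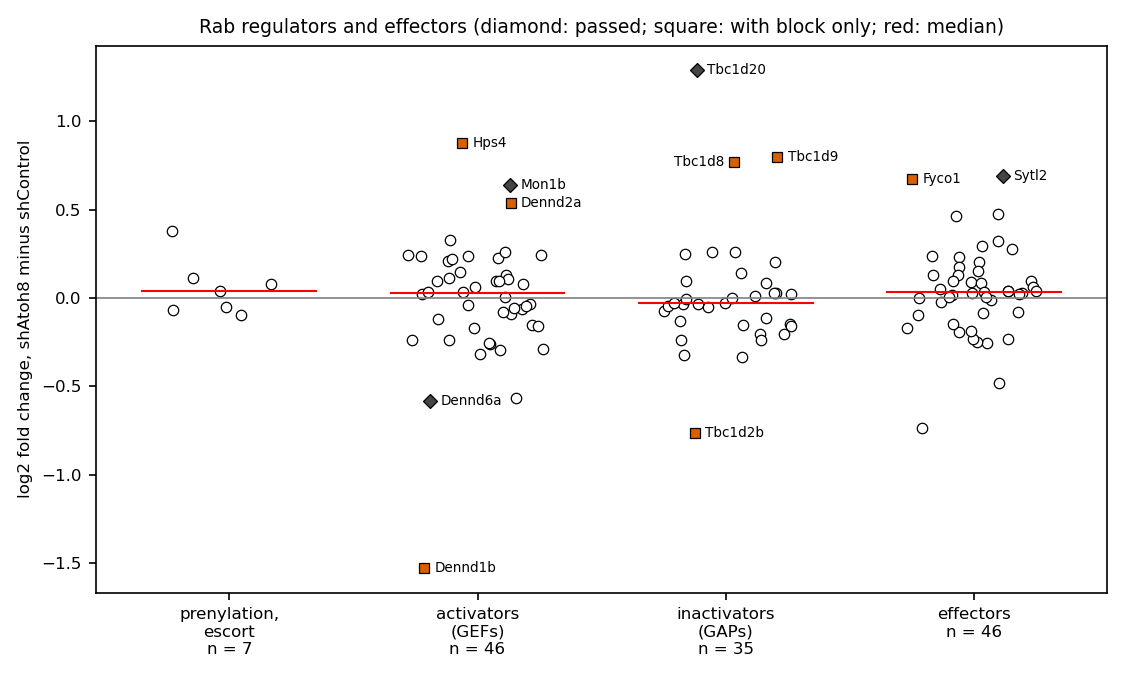
Log2 fold change (vertical axis) of 134 genes that act on Rabs, in 4 classes, each point a gene on its brightest probe set and the red line the class median. Dark diamonds passed without the block (Tbc1d20, Mon1b, Dennd6a and Sytl2), orange squares passed with the replicate block only, and open circles did not pass; the medians lie between -0.03 and 0.04.

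The calls rest on few arrays. Without 1 array at a time Tbc1d20 stayed between 1.18 and 1.35, Sytl2 between 0.64 and 0.74, Mon1b between 0.57 and 0.74 and Dennd6a between -0.64 and -0.53. Their highest adjusted p-values in those fits were 0.0784, 0.132, 0.186 and 0.164. Tbc1d20 lost its call without shControl replicate 1 or 2 or shAtoh8 replicate 1, and Sytl2, Mon1b and Dennd6a lost theirs without any 1 of the arrays. As means of their probe sets, Tbc1d20 was at 0.80 and Mon1b at 0.40, and both still passed (adjusted p = 0.0123 and 0.0377), while Dennd6a was at -0.36 and did not (0.0541). Mon1b also lost its call with median centring (0.0611), with the trend and robust variance model (0.0574) and without probe sets marked _x_ or _s_ (0.0521). Dennd6a lost its call with that variance model too (0.0526). Of the regulators called with the block only, none kept its call in block fits without replicate number 1 or without number 3, and Dennd2a and Fyco1 lost theirs also without number 2 (adjusted p = 0.0531 and 0.0542). Rab30 stayed between 0.64 and 0.86 and Rab7 between 0.46 and 0.60. These signs follow from groups that did not overlap and are no separate check.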

How the data were processed

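Biotin-labelled cRNA from 6 cultures was read on Affymetrix arrays, 1 per sample, per the labels' protocols. The deposited table holds log2 signals, 1 value per probe set and array, which RMA in the affy package produced, per the submitters' processing notes (versions not given there). RMA puts arrays on a common distribution, so a shift of most genes one way would be removed. Signals also depend on the probes, so different probe sets are called only brighter or dimmer. Precision is limited by the number of arrays.

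Of 45101 probe sets, 64 controls were left out and 45037 tested. Genes were named from the platform annotation (34945 probe sets with 1 symbol, 932 with several, 9160 with none), and Entrez IDs in a RefSeq table changed 0 symbols. limma 3.58.1 in R 4.3.3 (lmFit, eBayes) compared shAtoh8 with shControl, two-sided, with Benjamini-Hochberg adjustment over all 45037 and 0.05 as the threshold. SEs of fold changes are moderated. The fit was tested on simulated data.

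Deviations from group means correlated at 0.407, 0.187 and 0.433 between arrays of the same replicate number. Between arrays of different numbers they correlated at -0.351 to 0.0292. Deviations cancel out within a group, so positive values at the same number push the others down, and the contrast is no separate evidence. The labels name no pairing, so it was from these values that the numbers were taken to pair the arrays. The fit with the block has 2 residual degrees of freedom. Array values are given for members past the threshold in either fit, and for the next by p up to 24; in each regulator list, members past it in either fit, or the 2 with the smallest p. Members and lists were chosen with earlier results of these data known. Alternatives covered centring, brightness, variance model, array weights, probe set choice, thresholds, a minimum fold of 1.2 and arrays left out.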

Additional observations from a re-analysis of the deposited data

How the results depend on the processing

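The calls depend on the processing more than the fold changes do. Members that passed numbered 0 higher and 1 lower. There were 2 and 2 with the replicate block, 1 and 1 with array weights, 2 and 3 when the probe sets of each gene were averaged, and 2 and 4 at an adjusted p under 0.1. At an adjusted p under 0.01 there were 0 and 0, as with a minimum fold of 1.2. With 1 array left out the counts were 0 higher and 0 to 1 lower. Without both arrays of a replicate number, in fits with the replicate block, they were 0 to 2 higher and 0 to 1 lower: 0 and 0 without replicate 1 or 3, and 2 (Rab30 and Rab37) and 1 (Rab8b) without replicate 2. Median centring, brighter probe sets, the trend and robust variance model and the removal of _x_ and _s_ probe sets gave 0 and 1. The median over the members lay between -0.0082, with median centring, and 0.062, without replicate 1 in both groups. Among named genes, the sign turned for Rab40b with the mean of its probe sets (0.0044), whose sets disagree; the other named genes kept their sign in every setting run. The cause of the other changes was not tested, beyond fewer arrays or genes in the fit.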
